A study of Mus musculus with 12 samples.

Results

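Lysosomal genes other than the cathepsins were followed as a list of 36 genes whose products digest material inside the lysosome or form its membrane. The list was given by gene symbol. Its rule used no measured value, but it was drawn up with earlier results of these data known. All 36 were found among the 19852 entries of the deposited table, 34 under their own symbol. The other two, Naglu and Fuca1, each shared an entry with another gene, so the values given for Naglu and Fuca1 are those of the joint entries. By role the list held 9 membrane proteins, 8 sphingolipid enzymes and activators, 6 glycosaminoglycan enzymes, 6 glycoprotein and glycogen enzymes, 3 cholesterol and neutral lipid proteins, 2 enzymes that act on proteins, and 2 acid phosphatases. Of the 36, 35 passed the filter on low values (0.5 RPKM or more in 3 or more libraries) and were tested, and Galc did not pass. High values in a single group were enough to pass, which favours weakly expressed genes that differ.

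The libraries were made from liver of C57BL/6 mice aged 20 weeks, and fell into 4 groups of 3: female WT, female ARE-Del, male WT and male ARE-Del. WT mice were littermate controls. ARE-Del mice lack the AU-rich element in the 3′ untranslated region of Ifng, the gene of interferon gamma, in every cell, and the protocol text writes their genotype as ARE-Del-/-. That element shortens the life of the Ifng mRNA, and the series uses the mice for lasting interferon gamma expression. The question was which liver transcripts differ between ARE-Del and WT, and whether the sexes differ. Values were RPKM, reads scaled to transcript length and library total, so levels can be set side by side between genes.

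Lysosomes are acidic vesicles filled with hydrolases that break down lipids, sugars and proteins, bounded by heavily glycosylated membrane proteins. In liver they are found in hepatocytes and are especially abundant in resident macrophages, the Kupffer cells, which take up particles and dying cells from the blood. Many lysosomal genes carry a short promoter element, the CLEAR element, bound by transcription factors of the TFEB family, and interferon gamma is known for activating macrophages.

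The promoter letters are shown first, because they divide the members in a way that the expression values did not use. Promoters came from RefSeq (assembly GRCm38.p6), from 250 bases before to 50 bases after each start, while the authors' values were made on mm9, so no coordinate is taken from the authors' table. Of the 36 members, 34 matched, and Asah1 and Npc1 did not. The core of the CLEAR element, TCACGTG on either strand, was found in 9 of the 34 members, and in 4.29% of the 27025 genes with a promoter in the table. It contains the shorter E-box CACGTG, found in the same 9 members and in 8.09% of all genes. Each sequence below reads 5′ to 3′ along its gene's strand, with the core, or its reverse complement in Sgsh, in capitals. Where a promoter held several sites, 1 is shown.
Lamp1: ggcaagataTCACGTGgtccagcgc
Mcoln1: gcgccccgcTCACGTGaccgcggcg
Cln3: cgggtactgTCACGTGacccccaac
Glb1: gcttctgagTCACGTGgcctacaga
Naglu: accttcaggTCACGTGgcccgaggt
Gaa: tctgtgcgaTCACGTGtttgactct
Sgsh: cctgccgtgCACGTGAccgtgggga
Arsa: aactcagtgTCACGTGttgtctgct
Gla: agcgattgaTCACGTGagcatctac

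The Lamp1 window lies at chr8:13159090-13159114 on the plus strand, with its core 62 bases before the start, and the Mcoln1 window at chr8:3500464-3500488 (plus, 46 bases before). The others lie at chr7:126583343-126583367 for Cln3 (minus), chr9:114401020-114401044 for Glb1 (plus), chr11:101070011-101070035 for Naglu (plus), chr11:119267813-119267837 for Gaa (plus), chr11:119355524-119355548 for Sgsh (minus), chr15:89477426-89477450 for Arsa (minus) and chrX:134601218-134601242 for Gla (minus). Lamp1 held 4 CACGTG sites, and Mcoln1, Cln3 and Gla 2 each. Only Cln3 held the full palindrome, in which G precedes TCACGTG and AC follows it, and which 0.370% of all genes hold. Other motifs were also searched on both strands. The gamma-activated site TTCNNNGAA was in 3 of the 34 members (Cln3, Arsa and Gm2a), against 9.55% of all genes. The interferon-stimulated response element core, GAAA and GAAA separated by any 2 bases, was in 1 (Lamp1), against 3.99%. The PU box GAGGAA, bound by the macrophage factor PU.1, was in 16, against 31.3%. A match gives letters only, and says nothing of a factor's binding in these livers.

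Before the members' values, 3 facts of the libraries bear on them. Summed RPKM ran from 173476 to 208647, relative depth estimated from low values ran from 0.909 to 1.45 times that of female WT 1, and libraries of a group correlated at r = 0.988 to 0.994 across tested genes. Ifng was low throughout, at 0.0208, 0.011 and 0.00957 RPKM in WT females, 0.208, 0.0898 and 0.238 in ARE-Del females, 0.0382, 0 and 0 in WT males and 0.0978, 0.123 and 0.0742 in ARE-Del males, with every ARE-Del value above every WT value. The library labelled female ARE-Del 2 went against its label in 1 respect, with the X-inactivation RNA Xist at 0.0456 RPKM against 33.0 to 45.6 in the other female libraries, and the Y-linked Ddx3y at 0. Counts are therefore also given without it. Beyond n = 3, nothing in the labels states that a group's samples came from different animals, and p-values measure only the spread between these samples, which may be technical.

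In female livers, lysosomal members were higher in ARE-Del than in WT across several roles. Of the 35 tested, 19 rose and none fell (limma, Benjamini-Hochberg adjusted p below 0.05 over all genes tested), against a background of 31.3% of all tested genes called, 25.8% higher and 5.53% lower. The members' median log2 difference was 0.26, beside 0.09 for all tested genes. In males 15 rose and none fell, against a background of 21.5% called, 19.5% higher and 2.04% lower, with a median of 0.18 beside 0.10 for all genes. Log2 differences throughout are on the log2(RPKM + 1) scale, which understates the change of low genes. Leaving out the library labelled female ARE-Del 2 gave 19 members that rose in females and 15 in males.

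The scaling of the libraries bore on the weaker members. Median-of-ratios scaling lowered the median difference of all genes by 0.12 on the log2 scale in each sex and left 13 members higher and 3 lower in females and 10 higher and 2 lower in males. Quantile normalization lowered that median by 0.16 in females and 0.14 in males, and left 12 higher and 1 lower in females and 10 higher and 1 lower in males. The background moved as well. Of all 10568 tested genes, median-of-ratios scaling called 3830 in females, 46.7% of them higher, and 2277 in males, 51.2% of them higher. Quantile normalization called 4113 in females, 39.3% of them higher, and 2076 in males, 44.5% of them higher. The members that rose in both sexes with the values as deposited and under each of the 23 alternatives run numbered 10: Laptm5, Cd68, Psap, Ppt1, Hexa, Npc2, Asah1, Gm2a, Man2b1 and Laptm4a. In females Gusb and Acp2 did so too. The other 7 calls in females and 5 in males were each absent under at least 1 alternative. Under either of these scalings Naglu, Gaa and Glb1 passed in neither sex, Gla and Sgsh did not pass in females, and Gusb did not pass in males.

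**Figure D1:**
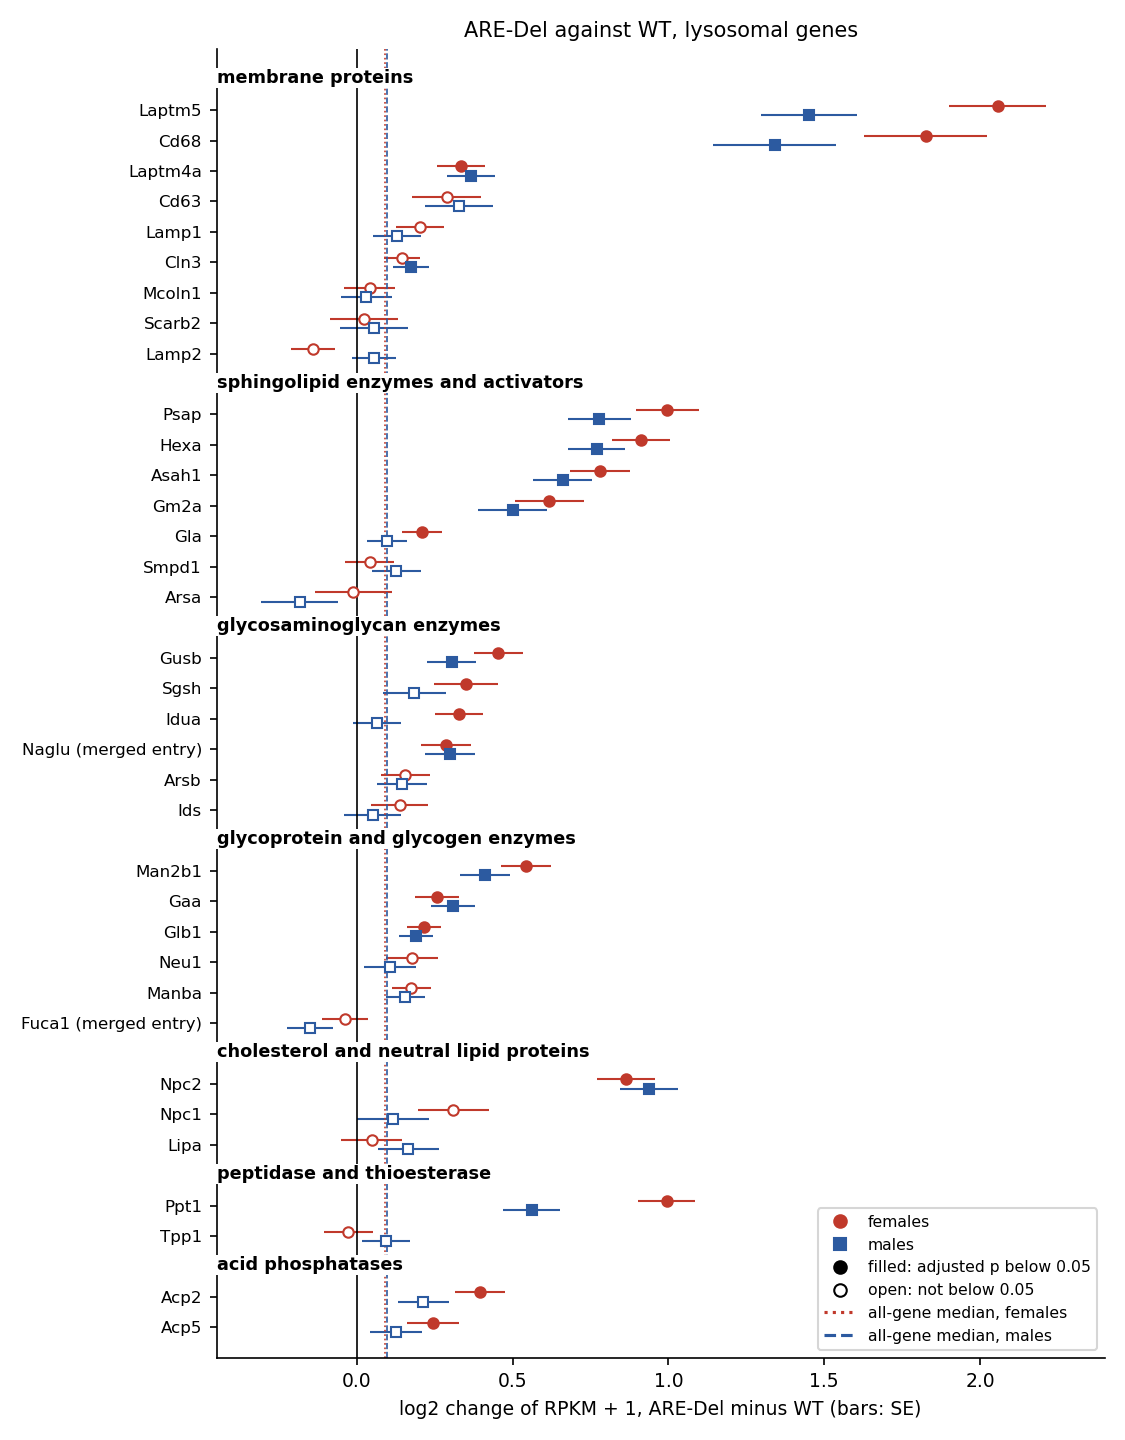
Log2 difference of RPKM + 1 between ARE-Del and WT for the 35 tested members, in females and in males, with bars for the SE and filled symbols where the adjusted p was below 0.05. The dotted and dashed lines are the medians of all tested genes (0.09 and 0.10); Laptm5 and Cd68 lie farthest to the right and no filled symbol lies left of 0.

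The membrane proteins split into a strongly changed pair and a majority that moved little. Of 9 tested, 3 rose in females (Laptm5, Cd68 and Laptm4a) and 4 in males (the same 3 and Cln3), so that the share called in females, 33.3%, was close to the 31.3% of all tested genes. Laptm5, a lysosomal membrane protein of haematopoietic cells, had 4.49, 3.17 and 4.40 RPKM in WT females and 18, 20.05 and 21.2 in ARE-Del females. In males it had 1.93, 3.18 and 2.74 in WT and 9.79, 7.05 and 9.79 in ARE-Del. No WT library of either sex reached an ARE-Del value, and the lowest ARE-Del value belonged to male ARE-Del 2. The log2 difference was 2.06 ± 0.15 (SE) in females (limma, adjusted p = 1.14e-06) and 1.45 ± 0.15 in males (adjusted p = 4.85e-05), a ratio of group means of 4.91 and 3.39.

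Cd68, macrosialin, the glycoprotein commonly used to mark macrophage lysosomes, had 7.17, 3.89 and 6.40 RPKM in WT females and 20.6, 23.5 and 23.8 in ARE-Del females. It had 2.79, 4.67 and 3.86 in WT males and 13.2, 8.66 and 11.4 in ARE-Del males. Again no ARE-Del library overlapped with a WT library. It rose by 1.83 ± 0.20 in females and 1.34 ± 0.20 in males on the log2 scale (limma, adjusted p = 1.92e-05 and 5.17e-04). Laptm4a, a broadly expressed relative of Laptm5, had 19.8, 16.8 and 20.0 RPKM in WT females and 24.9, 23.4 and 23.7 in ARE-Del females, and 16.1, 17.4 and 17.6 in WT males and 21.9, 22.7 and 22.0 in ARE-Del males. Its groups did not overlap either, but its ratios of means were 1.27 in females and 1.31 in males, far from those of Laptm5.

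The most abundant membrane proteins did not pass the test. Lamp1, a main glycoprotein of the lysosomal membrane and the member with the highest mean RPKM, had 87.3, 73.6 and 82.8 RPKM in WT females, 96.7, 91.6 and 92.0 in ARE-Del females, 85.4, 88.7 and 87.1 in WT males and 95.8, 97.0 and 92.9 in ARE-Del males. Every ARE-Del value exceeded every WT value, by little, with differences of 0.20 ± 0.08 in females (limma, adjusted p = 0.0636) and 0.13 ± 0.08 in males (adjusted p = 0.258), the latter -0.05 under median-of-ratios scaling. Lamp2, its partner and the receptor of chaperone-mediated autophagy, had 42.9, 39.6 and 44.3 RPKM in WT females, 40.2, 38.0 and 36.5 in ARE-Del females, 39.3, 41.1 and 40.9 in WT males and 40.3, 43.2 and 42.7 in ARE-Del males. Its groups overlapped within each sex, and its difference was -0.14 ± 0.07 in females (limma, adjusted p = 0.156) and 0.06 ± 0.07 in males (adjusted p = 0.617).

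Scarb2, the receptor that carries glucocerebrosidase to the lysosome, overlapped between genotypes too, with 22.7, 18.5 and 22.5 RPKM in WT females, 19.8, 23.0 and 21.8 in ARE-Del females, 22.0, 26.9 and 27.5 in WT males and 26.8, 28.6 and 24.0 in ARE-Del males (log2 differences of 0.02 ± 0.11 in females and 0.06 ± 0.11 in males). Cln3, the membrane protein lost in juvenile Batten disease, was between 0.960 and 1.63 RPKM in all libraries. It rose in males (0.18 ± 0.06, limma adjusted p = 0.0474) and did not pass the test in females (0.14 ± 0.06, adjusted p = 0.0743), and its call in males was absent under 16 of 23 alternatives. Cd63, a tetraspanin, had differences of 0.29 ± 0.11 in females and 0.33 ± 0.11 in males that did not pass (limma, adjusted p = 0.0661 and 0.053). Without the library labelled female ARE-Del 2 it passed in both sexes (limma, adjusted p = 0.0395 and 0.0475). The calcium channel Mcoln1 was between 1.83 and 2.48 RPKM in all libraries and changed in neither sex by the test.

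**Figure D2:**
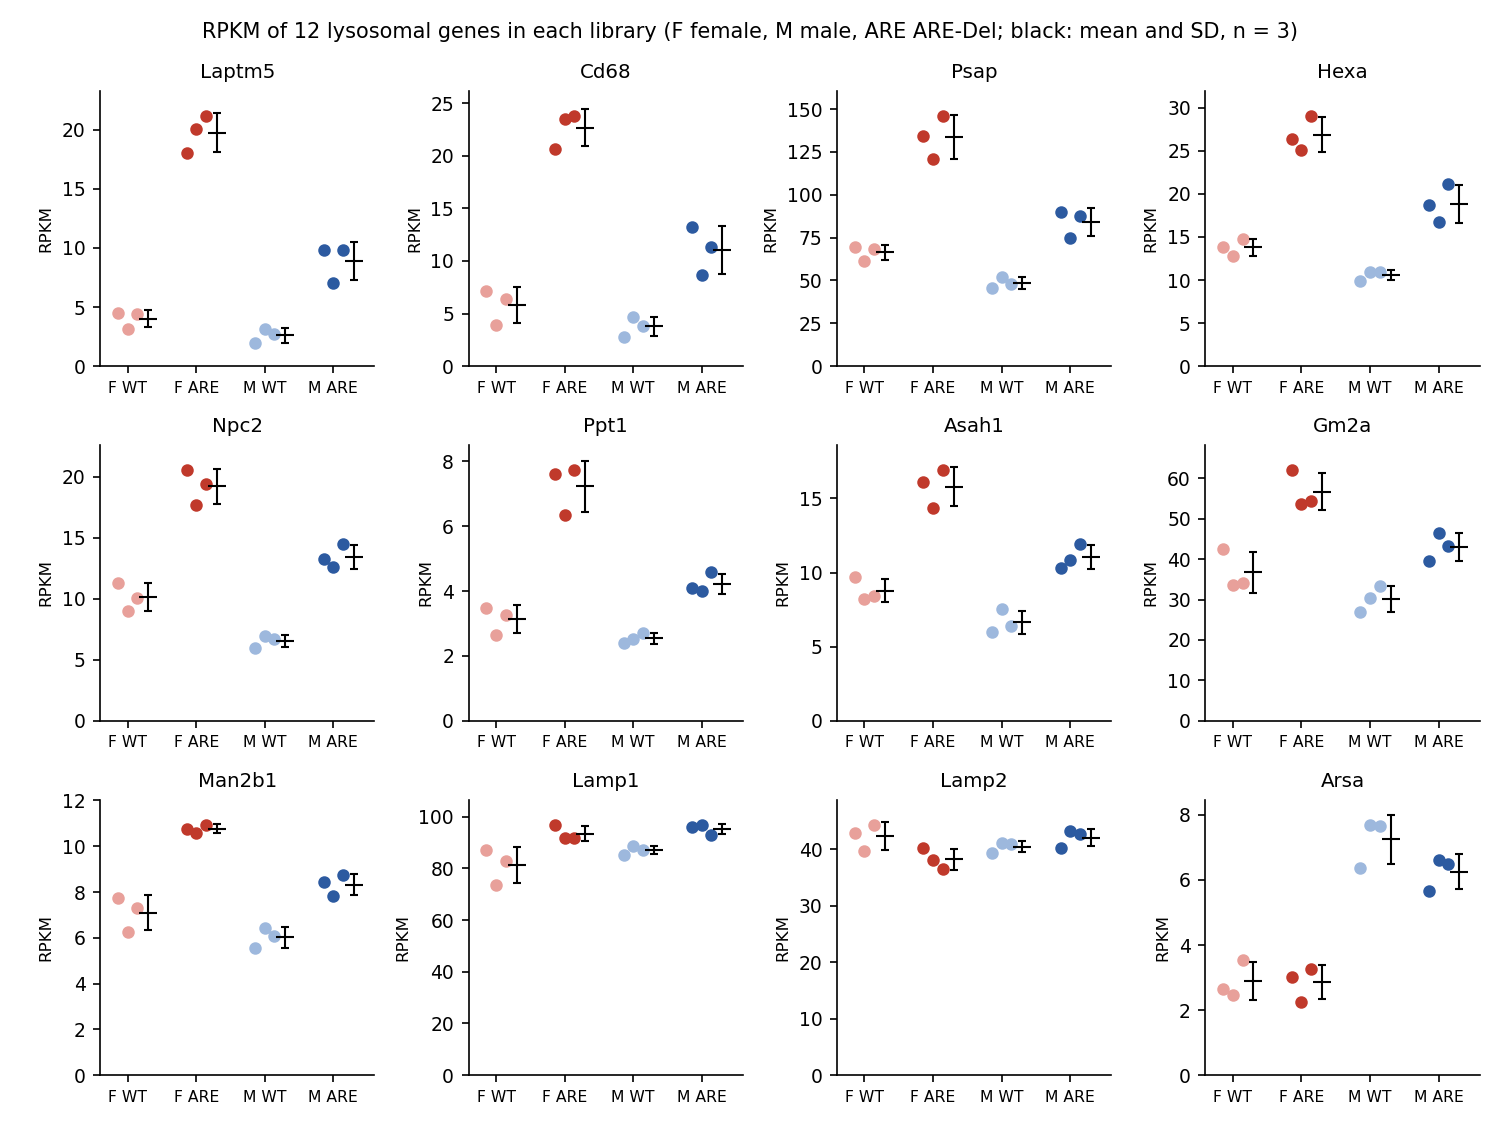
RPKM of 12 members in each library, one panel per gene with a linear axis from 0, points for the libraries of each group and black marks for mean and SD (n = 3). ARE-Del points stand above WT points of the same sex for 10 of the 12 genes, Laptm5 with the largest ratio, while those of Lamp2 overlap with WT and those of Arsa separate the sexes.

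Sphingolipid enzymes and their activators held the second group of large differences. Of 7 tested, 5 rose in females (Hexa, Gla, Asah1, Gm2a and Psap) and 4 in males (all of these but Gla), and Smpd1 and Arsa passed in neither sex. Psap, the precursor of the saposins that present sphingolipids to their hydrolases, had 69.8, 61.3 and 68.3 RPKM in WT females and 134, 121 and 146 in ARE-Del females. In males it had 45.4, 52.3 and 48.0 in WT and 89.8, 74.5 and 87.9 in ARE-Del. Its level doubled in females (ratio of means 2.01; log2 difference 1.00 ± 0.10, limma adjusted p = 1.09e-05) and the ratio in males was 1.73 (0.78 ± 0.10, adjusted p = 2.09e-04). No ARE-Del library overlapped with a WT library.

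Hexa, the alpha subunit of beta-hexosaminidase, which degrades GM2 ganglioside, had 13.8, 12.8 and 14.7 RPKM in WT females and 26.3, 25.1 and 29.1 in ARE-Del females, and 9.95, 10.9 and 10.9 in WT males and 18.7, 16.7 and 21.1 in ARE-Del males. Genotypes did not overlap even across the sexes, with log2 differences of 0.91 ± 0.09 and 0.77 ± 0.09 (limma, adjusted p = 1.04e-05 in females and 1.12e-04 in males). Gm2a, the activator that lifts GM2 out of the membrane for Hexa, had 42.5, 33.6 and 34.2 RPKM in WT females, 62.1, 53.7 and 54.3 in ARE-Del females, 26.9, 30.4 and 33.3 in WT males and 39.6, 46.5 and 43.2 in ARE-Del males. It did not overlap between genotypes within a sex, and rose by 0.62 ± 0.11 in females and 0.50 ± 0.11 in males on the log2 scale (limma, adjusted p = 0.0011 and 0.00773).

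Asah1, acid ceramidase, had 9.67, 8.24 and 8.42 RPKM in WT females, 16.1, 14.3 and 16.9 in ARE-Del females, 5.96, 7.52 and 6.42 in WT males and 10.3, 10.8 and 11.9 in ARE-Del males. The lowest ARE-Del library lay above the highest WT library, and the log2 differences were 0.78 ± 0.10 and 0.66 ± 0.10 (limma, adjusted p = 5.03e-05 and 4.40e-04). Gla, alpha-galactosidase A, was lower in level (1.01 to 1.84 RPKM over the libraries) and rose in females only by the test (0.21 ± 0.06, limma adjusted p = 0.0261, against 0.10 ± 0.06 and adjusted p = 0.315 in males). Smpd1, acid sphingomyelinase, lay between 7.82 and 9.65 RPKM in all libraries and its groups overlapped. Galc, galactosylceramidase, averaged 0.263 RPKM and lay below the filter. Its mean was 0.057 RPKM higher in ARE-Del. Exchanging genotype labels within each sex gave an exact 2-sided permutation p of 0.005, the lowest that 400 arrangements can give. That p is unadjusted, rests on the values as deposited and was not run under other scalings. All ARE-Del values of Galc lay above all WT values within each sex, as for 34.9% of tested genes in females and 36.1% in males.

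Glycosaminoglycan enzymes moved by less. Of 6 tested, 4 rose in females (Gusb, Naglu, Sgsh and Idua) and 2 in males (Gusb and Naglu). Gusb, beta-glucuronidase, had 3.66, 3.24 and 3.51 RPKM in WT females, 5.06, 5.03 and 5.27 in ARE-Del females, 2.91, 3.82 and 3.36 in WT males and 4.52, 4.03 and 4.56 in ARE-Del males. The lowest ARE-Del value exceeded the highest WT value, with log2 differences of 0.45 ± 0.08 in females and 0.30 ± 0.08 in males (limma, adjusted p = 8.38e-04 and 0.0174). The entry of Naglu, an enzyme of heparan sulfate breakdown, had 2.80, 2.47 and 2.34 RPKM in WT females, 3.62, 3.06 and 3.26 in ARE-Del females, 1.81, 2.21 and 2.13 in WT males and 2.86, 2.46 and 2.95 in ARE-Del males. Genotypes did not overlap within a sex, and the differences were 0.29 ± 0.08 and 0.30 ± 0.08 (limma, adjusted p = 0.0168 and 0.0204).

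Sgsh, the heparan sulfate sulfamidase, had 1.03, 1.02 and 0.910 RPKM in WT females, 1.17, 1.57 and 1.91 in ARE-Del females, 0.870, 1.07 and 1.02 in WT males and 1.39, 0.988 and 1.41 in ARE-Del males. The female groups did not overlap and the male groups did, and it passed in females alone (0.35 ± 0.10, limma adjusted p = 0.0204). Idua, alpha-L-iduronidase, was between 0.548 and 1.24 RPKM, with 0.33 ± 0.08 in females (limma, adjusted p = 0.00607) and 0.06 ± 0.08 in males (adjusted p = 0.588). The sulfatases Ids and Arsb passed in neither sex.

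Glycoprotein and glycogen enzymes split evenly. Of 6 tested, the same 3 rose in both sexes (Man2b1, Gaa and Glb1), and Manba, Neu1 and the entry of Fuca1 passed in neither. Man2b1, lysosomal alpha-mannosidase, had 7.73, 6.25 and 7.30 RPKM in WT females, 10.8, 10.6 and 10.9 in ARE-Del females, 5.54, 6.42 and 6.09 in WT males and 8.43, 7.82 and 8.72 in ARE-Del males. No overlap was seen, with log2 differences of 0.54 ± 0.08 and 0.41 ± 0.08 (limma, adjusted p = 2.14e-04 and 0.00313). Gaa, acid alpha-glucosidase, which degrades glycogen in the lysosome, had 8.93, 9.06 and 8.92 RPKM in WT females, 11.7, 10.7 and 10.3 in ARE-Del females, 6.86, 7.43 and 7.13 in WT males and 9.57, 8.28 and 9.42 in ARE-Del males. Its genotypes did not overlap within a sex, and it rose by 0.26 ± 0.07 and 0.31 ± 0.07 (limma, adjusted p = 0.0151 and 0.00887). Glb1, beta-galactosidase, was near 1 RPKM and rose by 0.22 ± 0.05 and 0.19 ± 0.05 (limma, adjusted p = 0.00884 and 0.0266).

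The cholesterol and neutral lipid proteins did not move together. Npc2, the soluble protein that binds cholesterol inside the lysosome, had 11.3, 9.01 and 10.04 RPKM in WT females and 20.5, 17.6 and 19.4 in ARE-Del females. It had 5.98, 6.95 and 6.68 in WT males and 13.2, 12.6 and 14.5 in ARE-Del males, above all WT libraries of both sexes. The log2 difference was 0.86 ± 0.09 in females (limma, adjusted p = 1.71e-05) and 0.94 ± 0.09 in males (adjusted p = 2.91e-05). Npc1, the membrane protein to which Npc2 hands cholesterol, was between 4.04 and 8.18 RPKM and did not pass (0.31 ± 0.11 in females, limma adjusted p = 0.059, and 0.12 ± 0.11 in males, adjusted p = 0.508). Lipa, the acid lipase that splits cholesteryl esters, overlapped between genotypes, with 31.6, 26.7 and 28.4 RPKM in WT females, 33.2, 26.6 and 30.1 in ARE-Del females, 19.9, 20.0 and 23.5 in WT males and 22.9, 24.0 and 24.4 in ARE-Del males.

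Of the enzymes acting on proteins, Ppt1 rose and Tpp1 did not pass. Ppt1, which removes fatty acids from cysteines of proteins, had 3.49, 2.64 and 3.28 RPKM in WT females, 7.62, 6.33 and 7.73 in ARE-Del females, 2.39, 2.52 and 2.71 in WT males and 4.09, 3.99 and 4.58 in ARE-Del males. ARE-Del and WT values did not overlap, with log2 differences of 0.99 ± 0.09 in females and 0.56 ± 0.09 in males (limma, adjusted p = 5.24e-06 and 0.00105). Tpp1, a tripeptidyl peptidase, lay between 9.28 and 11.3 RPKM in all libraries. The acid phosphatases passed in females alone. Acp2 had 8.93, 8.72 and 7.40 RPKM in WT females, 11.2, 10.7 and 12 in ARE-Del females, 6.89, 7.78 and 8.10 in WT males and 9.11, 9.12 and 8.59 in ARE-Del males, without overlap within a sex, and its log2 difference was 0.40 ± 0.08 in females (limma, adjusted p = 0.00274) and 0.21 ± 0.08 in males (adjusted p = 0.0824). Acp5, the tartrate-resistant phosphatase, had 0.24 ± 0.08 in females (limma, adjusted p = 0.0416) and 0.13 ± 0.08 in males (adjusted p = 0.309), and its call in females was absent under 14 of 23 alternatives.

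Under other settings 4 members that did not pass with the values as deposited fell. Lamp2 fell in females under median-of-ratios scaling (-0.32, limma adjusted p = 0.00193), quantile normalization (-0.26) and array weights (-0.19). Under median-of-ratios scaling Tpp1 fell in females (-0.20), Arsa fell in males (-0.34), and the entry of Fuca1 fell in both sexes (-0.22 in females and -0.32 in males). Fuca1 also fell in males under quantile normalization (-0.27). With the values as deposited the differences were -0.03 ± 0.08 for Tpp1 in females, -0.18 ± 0.12 for Arsa in males, and -0.04 ± 0.07 and -0.15 ± 0.07 for Fuca1.

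Non-overlap of the libraries gave larger counts than the test, for the members as for all genes. In females the 3 ARE-Del values exceeded the 3 WT values for 25 of the 35 tested members, as for 34.9% of all tested genes. In males this held for 20, as for 36.1%, and the entry of Fuca1 was the 1 member with all ARE-Del libraries below WT, as for 5.43% of tested genes. Across both sexes, 11 members had 6 ARE-Del values above all 6 WT values (1535 of the 10568 tested genes): Lamp1, Cd68, Laptm4a, Laptm5, Hexa, Asah1, Psap, Gusb, Man2b1, Npc2 and Ppt1.

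Summed over the 34 members with their own entry, RPKM averaged 441 ± 35.1 (SD, n = 3) in WT females, 629.6 ± 22.8 in ARE-Del females, 398 ± 19.7 in WT males and 513 ± 8.41 in ARE-Del males, which was 0.212% to 0.319% of a library's summed RPKM. Lamp1 made up 18% and Psap 16.8% of the sum, so it follows few genes. Some members gained on others. The ratio of Psap to Lamp1 within a library averaged 0.819 ± 0.0175 (SD, n = 3) in WT females, 1.43 ± 0.141 in ARE-Del females, 0.557 ± 0.0292 in WT males and 0.884 ± 0.0997 in ARE-Del males. The ratio of Npc2 to Npc1 averaged 1.70, 2.53, 1.41 and 2.64 in the same order, and that of Ppt1 to Tpp1 averaged 0.299, 0.705, 0.259 and 0.402. These pairs were chosen after their values were seen, and a ratio within a library does not depend on its scaling.

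Members with and without the CLEAR core were set side by side. The 9 members with TCACGTG had a median log2 difference of 0.21 in females, ranging from -0.01 to 0.35, and of 0.18 in males, and 5 and 4 of them rose. The 24 tested members with a promoter that lacked it had medians of 0.31 in females and 0.19 in males, and 13 and 10 rose. Laptm5, Cd68, Psap, Hexa, Npc2, Gm2a and Ppt1 are among the latter. So are Lamp2, Scarb2, Smpd1, Tpp1, Lipa and the entry of Fuca1, which passed in neither sex. Lamp1, with the most sites, is among the former. Of all tested genes 25.8% were called higher in females and 19.5% in males, and the part of the core in these differences was not tested. The gamma-activated site of Gm2a is shown because Gm2a was the member with this motif that changed most (chr11:55097895-55097921, plus strand, motif in capitals).
Gm2a: cccgcctctTTCGCAGAAccttttttt

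Markers of macrophages, and of some other cell types, also differed between the genotypes. The background for the counts below is 25.8% of all tested genes called higher in females and 19.5% in males. The summed RPKM of 12 Kupffer cell markers was 127 to 219 in WT females, 612 to 731 in ARE-Del females, 89.2 to 146 in WT males and 342 to 414 in ARE-Del males. That of 13 monocyte and macrophage markers was 17.0 to 25.8, 159 to 195, 12 to 22.7 and 94.4 to 118 in the same order, and that of 9 lipid-associated macrophage markers was 27.1 to 42.0, 112 to 119, 27.0 to 31.1 and 54.9 to 67.0. Of the Kupffer markers 10 of 12 rose in each sex, among them Cd5l (2.29 ± 0.24 in females and 1.89 ± 0.24 in males) and the complement chain C1qb (2.17 ± 0.17 and 1.90 ± 0.17), while Cd163 fell in females (named after its values were seen). Of the monocyte and macrophage markers 10 of 10 tested rose in females and 9 of 10 in males, among them Mpeg1 and Fcgr4. The low markers of that list could pass the filter through high ARE-Del values alone, which favours these counts. Of the lipid-associated markers 3 of 6 tested rose in females and 4 in males, while the fatty acid receptor Cd36 fell in males (-0.69, named after its values were seen). Tyrobp, with a mean of 27.8 RPKM, was the highest of that list and carries much of its sum. None of the 12 Kupffer or 13 monocyte and macrophage markers was at 0 in a library, and Gpnmb of the lipid-associated list was at 0 in 1.

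In each of the 4 groups the library with the lowest Laptm5 and the lowest Cd68 also had the lowest Kupffer marker sum: female WT 2 (127 RPKM), female ARE-Del 1 (612 RPKM), male WT 1 (89.2 RPKM) and male ARE-Del 2 (342 RPKM). This was seen after the values were known and is not particular to Kupffer markers. The monocyte and macrophage sum was lowest in the same libraries, and the endothelial sum in all of them but male ARE-Del 2. Female WT 2 and male WT 1 also had the lowest median-of-ratios scaling factors of their groups (0.899 and 0.865), and the cause was not tested. The 7 T cell markers summed to 0.418 to 1.40 RPKM in WT females, 3.74 to 6.65 in ARE-Del females, 0.608 to 0.888 in WT males and 2.10 to 3.69 in ARE-Del males, with 5 of 5 tested called in females and 4 of 5 in males. The sums of 8 natural killer and cytotoxic cell markers ran from 1.19 to 2.01, 7.53 to 10.3, 0.569 to 1.08 and 5.15 to 7.15 RPKM in the same order, and 4 of 4 tested rose in females and 3 in males. Single markers of these 2 lists had means of at most 0.526 RPKM (Cd8a) and 1.29 RPKM (Gzmb). High ARE-Del values alone could carry such markers past the filter, so the counts of both lists are favoured by it and carry no weight of their own. The 9 stellate cell and matrix markers summed to 20.8 to 23.9, 25.9 to 29.8, 11.98 to 17.3 and 17.6 to 26.7 RPKM, and 4 of 7 tested rose in females and 2 in males. The sums of 6 neutrophil markers overlapped between genotypes in each sex, 2 of 3 tested rose in females and 1 in males, and the defining genes Mpo and Camp were at 0 in 10 and 8 of the 12 libraries. In the remaining lists, 3 of 10 endothelial markers rose in females and 1 in males. That is 30% and 10%, near and below the 25.8% and 19.5% of all tested genes called higher. Of the tested B and plasma cell markers 2 of 4 rose in each sex. Of the tested cholangiocyte markers 2 of 2 rose in females and 1 in males.

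Hepatocyte markers, 11 genes, summed to 34016 to 36231 RPKM in WT females, 41860 to 44455 in ARE-Del females, 23584 to 24541 in WT males and 24276 to 33038 in ARE-Del males. This sum is mostly albumin (Alb, with a mean of 24774 RPKM), whose log2 difference in females was 0.30 ± 0.13 (limma, adjusted p = 0.107). Over the 11 hepatocyte genes 2 rose and 1 fell in females, with 6 of the 11 differences below 0 and a median of -0.000274 on the log2 scale, and 5 rose in males, with a median of 0.29. The shares called were 27.3% in females and 45.5% in males, beside 31.3% and 21.5% of all tested genes. In bulk liver, more cells of a type and more RNA per cell cannot be told apart, and the part of any of these cell types in the members' changes was not tested.

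**Figure D3:**
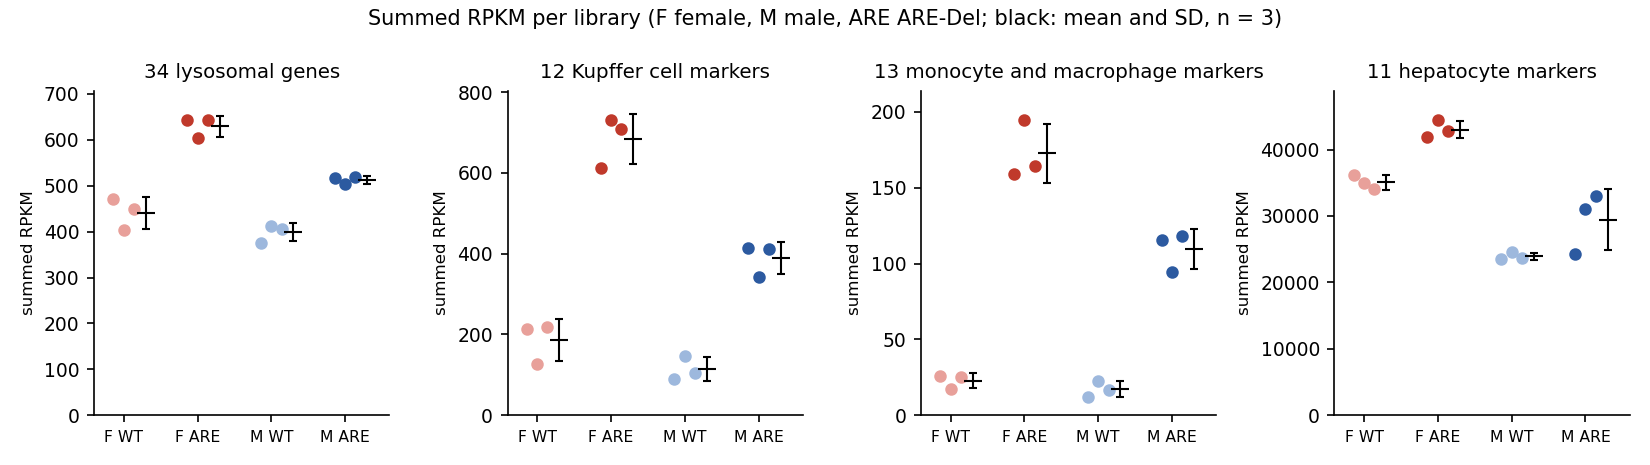
Summed RPKM per library for the 34 members with their own entry, 12 Kupffer cell markers, 13 monocyte and macrophage markers and 11 hepatocyte markers, with points for libraries, black marks for mean and SD (n = 3) and linear axes from 0. Both macrophage sums and the members' sum separate ARE-Del from WT in each sex, and the hepatocyte sum does so in females but overlaps in males.

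Whether the change with genotype differed between the sexes was tested by the interaction. No member was called (limma), 3 of 35 had an unadjusted p below 0.05, and no member was called under any alternative run. The log2 difference was larger in females for 24 of the 35. The median interaction of the members was 0.087 on the log2 scale, beside 0.000425 for all tested genes. The background of adjusted calls was 0.568% of all tested genes, and the share with an unadjusted p below 0.05 was not counted. The 3 members were Ppt1 (female minus male difference 0.43 ± 0.13, limma adjusted p = 0.179), Laptm5 (0.60 ± 0.22, adjusted p = 0.275) and Idua (0.26 ± 0.11, adjusted p = 0.361). A member called in 1 sex alone is thus not shown to differ between the sexes.

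Females and males differed in 7 members in WT and in 17 in ARE-Del. The interaction above is also the test of these sex differences against each other, and called none. In WT, 7 of 35 passed, 6 higher in females and 1 lower, against a background of 9.76% called, 6.72% higher and 3.04% lower. In ARE-Del 17 passed, 16 higher in females and 1 lower, against 22.4% called, 16.4% higher and 6.02% lower. Those called in both genotypes were Hexa, Asah1, Psap, Gaa, Npc2 and Lipa, higher in females, and Arsa, lower in females. In ARE-Del alone Cd68, Laptm5, Gla, Gm2a, Ids, Glb1, Man2b1, Npc1, Ppt1 and Acp2 were also higher in females. Lamp2, Scarb2 and Manba did not pass, but in ARE-Del all their female values lay below all male values, as in 13.1% of tested genes. The all-gene medians of the sex comparisons were 0.04 on the log2 scale in both genotypes.

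Arsa, arylsulfatase A, which cleaves sulfatide, was the only member called lower in females with the values as deposited. It had 2.65, 2.45 and 3.55 RPKM in WT females and 3.02, 2.26 and 3.27 in ARE-Del females, and 6.38, 7.70 and 7.67 in WT males and 5.65, 6.63 and 6.49 in ARE-Del males. Every male value exceeded every female value, as in 9.58% of tested genes in WT and 13.1% in ARE-Del, and genotypes overlapped within each sex. The female minus male log2 difference was -1.09 ± 0.12 in WT (limma, adjusted p = 1.42e-04) and -0.92 ± 0.12 in ARE-Del (adjusted p = 3.56e-04). Its fellow sulfatase Arsb did not differ by the test, and the ratio of Arsa to Arsb averaged 0.736 in WT females, 0.623 in ARE-Del females, 1.77 in WT males and 1.35 in ARE-Del males.

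Npc2 was the clearest of the members higher in female WT livers, with a log2 difference of 0.56 ± 0.09 (limma, adjusted p = 0.00246). Lipa and Psap followed with 0.44 ± 0.10 and 0.45 ± 0.10 (limma, adjusted p = 0.0152 and 0.0164), and their calls were lost under 3 and 4 of 23 alternatives. In ARE-Del the largest were Laptm5 (1.08 ± 0.15, limma adjusted p = 5.16e-04), Cd68 (0.99 ± 0.20, adjusted p = 0.00396), Psap (0.66 ± 0.10, adjusted p = 7.65e-04) and Ppt1 (0.65 ± 0.09, adjusted p = 4.95e-04). In WT, Laptm5 and Cd68 had 0.48 ± 0.15 and 0.50 ± 0.20 without passing (limma, adjusted p = 0.0741 and 0.136). The Kupffer marker sums given above also ran higher in female than in male ARE-Del libraries, without overlap. So did the sums of the monocyte and macrophage, lipid-associated, T cell, natural killer and hepatocyte markers. The part of any of these cell types was not tested.

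The WT sex count rested on single libraries. It was 2 without female WT 1 or without male WT 1, 3 without female WT 3 or without male WT 3, and 13 without female WT 2, and only Arsa and Npc2 were called under each alternative. The same fits called 642, 525, 811, 727 and 1116 of all tested genes in that order, beside 1031 with every library. In the fits with 2 or 3 members called, the members' share was near that of all genes. Under quantile normalization 4 members were higher and 4 lower in WT females. The ARE-Del count was 11 without female ARE-Del 1 and 16 without female ARE-Del 2, and its split was 14 higher and 3 lower under median-of-ratios scaling and 13 higher and 4 lower under quantile normalization. Of all tested genes 1592, 2054, 2843 and 3010 were called in that order, beside 2370 with the values as deposited. In WT quantile normalization called 1395.

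**Figure D4:**
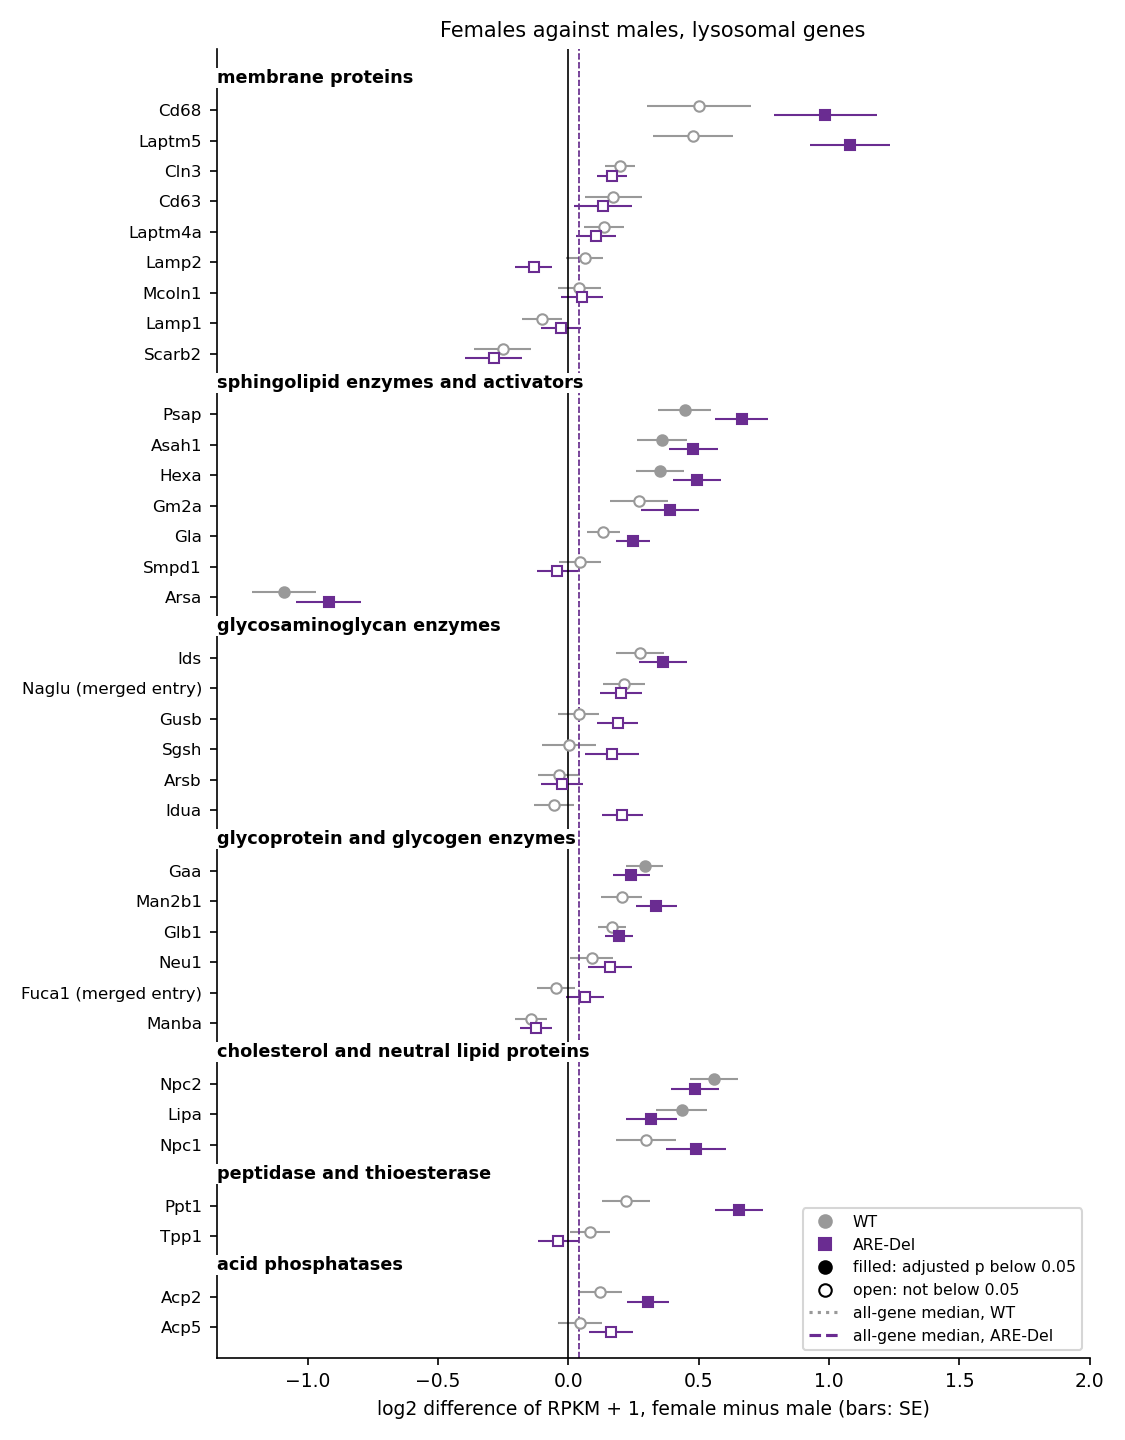
Female minus male log2 difference of RPKM + 1 for the 35 tested members in WT and in ARE-Del, with bars for the SE and filled symbols where the adjusted p was below 0.05. Arsa stands alone on the left at -1.09 and -0.92, and Laptm5 and Cd68 in ARE-Del lie farthest to the right.

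The wider lysosomal system was read through 7 lists with 167 tested genes, of which 74 rose and 4 fell in females and 62 rose and 1 fell in males. That is 46.7% called in females and 37.7% in males, beside 31.3% and 21.5% of all tested genes. Without male WT 1 the number called in males was 31, beside 1259 of 10547 tested genes. Under median-of-ratios scaling the split was 48 higher and 19 lower in females and 32 higher and 8 lower in males, and under quantile normalization 51 and 23 in females and 27 and 7 in males. Of all 10568 tested genes these scalings called 3830 and 4113 in females and 2277 and 2076 in males. In males the share of the lists called was thus near that of all genes under both scalings. The list of other lysosomal hydrolases also holds genes of other functions, Ifi30 among them. Of its 33 tested genes, 21 rose and 1 fell (Creg1, named after its values were seen) in females and 19 rose in males, with medians of 0.35 and 0.29 on the log2 scale, and 11 were called in males without male WT 1. The fall of Creg1 was lost without female WT 3 or female ARE-Del 3. The asparaginyl endopeptidase Lgmn rose by 1.40 ± 0.17 and 1.06 ± 0.17, and the thiol reductase Ifi30, which unfolds antigens for presentation, by 1.39 ± 0.11 and 0.83 ± 0.11. Pla2g7 stood in that list with 1.96 ± 0.10 and 1.60 ± 0.10, but is known as a secreted phospholipase. Of 12 cathepsins 9 rose in each sex, with medians of 0.64 and 0.50, among them Ctss (2.54 ± 0.19 and 2.20 ± 0.19), Ctsc and Ctsd.

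Membrane transporters and channels moved less as a list. Of 30 tested, 13 rose and 2 fell in females (Cd164 and Laptm4b, named after their values were seen) and 10 rose in males, with medians of 0.14 and 0.13, which is 50% and 33.3% called beside 31.3% and 21.5% of all genes. The male count was 3 without male WT 1 and 5 without male ARE-Del 1 or male ARE-Del 3, and the fall of Cd164 was absent under 10 of 23 alternatives. The phagosomal metal transporter Slc11a1 (1.87 ± 0.14 in females and 1.35 ± 0.14 in males) and the peptide transporter Slc15a3 (1.46 ± 0.14 and 0.84 ± 0.14) led it, and the protease Sppl2a rose by 0.48 ± 0.10 and 0.51 ± 0.10. Laptm4b, a relative of the members Laptm4a and Laptm5, fell by 0.31 in females on the log2 scale (limma, adjusted p = 0.00179). Of 18 subunits of the V-ATPase, the pump that acidifies the lysosome, 8 rose in females and 7 in males (4 without male WT 1), with medians of 0.17 and 0.22, Tcirg1 by 0.75 ± 0.13 and 0.68 ± 0.13 and Atp6v1b2 by 0.60 ± 0.08 and 0.41 ± 0.08. Atp6v0d2, a subunit of macrophages and osteoclasts, rose in females (1.95 ± 0.31, limma adjusted p = 4.01e-04) and had 0.63 ± 0.31 in males (adjusted p = 0.165). Its interaction was 1.31 ± 0.43 (limma, adjusted p = 0.224). Atp6v0d2 was higher in females than in males already in WT, by 2.003 on the log2 scale, and by 3.31 in ARE-Del. These were the largest sex differences among the V-ATPase subunits. The part of macrophages in its rise was not tested.

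Of 30 genes that sort enzymes to the lysosome, 16 rose in females and 8 in males, with medians of 0.21 and 0.18. The share called was 53.3% in females and, in males, 26.7%, near the 21.5% of all genes. The female count was 8 without female ARE-Del 3. The male count was 1 without male WT 1, 2 without male WT 3, 3 without male ARE-Del 1 or male ARE-Del 2, and 5 without male ARE-Del 3 or female ARE-Del 3. M6pr, the cation-dependent mannose 6-phosphate receptor, rose by 0.42 ± 0.08 and 0.25 ± 0.08, its male call being absent under 10 of 23 alternatives, both scalings and the replicate block among them (highest adjusted p = 0.363, limma). The adaptor subunit Ap3b1 rose by 0.46 ± 0.08 and 0.34 ± 0.08, its male call being lost under both scalings and without male WT 3. The sortilin gene Sort1 rose in females (0.89 ± 0.15) and had 0.14 ± 0.15 in males.

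Regulators of lysosome biogenesis had medians of 0.04 and 0.08, near those of all genes, and 4 of 21 rose in females and 3 in males, 19.0% and 14.3% beside the 31.3% and 21.5% of all genes. The female count was 2 without female ARE-Del 1 or female ARE-Del 2 and 1 without female ARE-Del 3. Mtor rose in females (0.62 ± 0.08) and had 0.22 ± 0.08 in males. Tfec, a macrophage member of the TFEB family, rose by 0.47 ± 0.06 and 0.29 ± 0.06, the male call being lost under quantile normalization. Tfec was tested under only 19 of the 23 alternatives, and in only 9 of the fits with 1 library left out. High values in few libraries could carry it past the filter, which favours its calls and the counts they enter. Tfeb itself passed narrowly in females (0.21 ± 0.07, limma adjusted p = 0.0494), and had -0.03 ± 0.07 in males. Its female call was absent under 17 of 22 alternatives, among them both other pseudocounts, both scalings, the replicate block and the fit without the library labelled female ARE-Del 2 (limma, highest adjusted p = 0.666). Tfe3, another of that family, had 0.23 ± 0.06 in females (limma, adjusted p = 0.013) and 0.14 ± 0.06 in males (adjusted p = 0.128), its female call being lost under both scalings and without female ARE-Del 3 (highest adjusted p = 0.413). Of 23 autophagy genes 3 rose and 1 fell in females and 6 rose and 1 fell in males, with medians of 0.05 and 0.09. The shares called were 17.4% and 30.4%, beside 31.3% and 21.5% of all genes. The male count of 7 called was 2 without male WT 1, male WT 3 or male ARE-Del 3, 4 without male ARE-Del 1 and 1 without male ARE-Del 2. The gene that fell in both was Map1lc3a, which encodes a protein of the autophagosome membrane (-0.65 ± 0.09 in females and -0.54 ± 0.09 in males), while the kinase Ulk1 rose by 0.49 ± 0.12 and 0.40 ± 0.12, its male call being absent under 7 of 23 alternatives, both scalings among them.

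**Figure D5:**
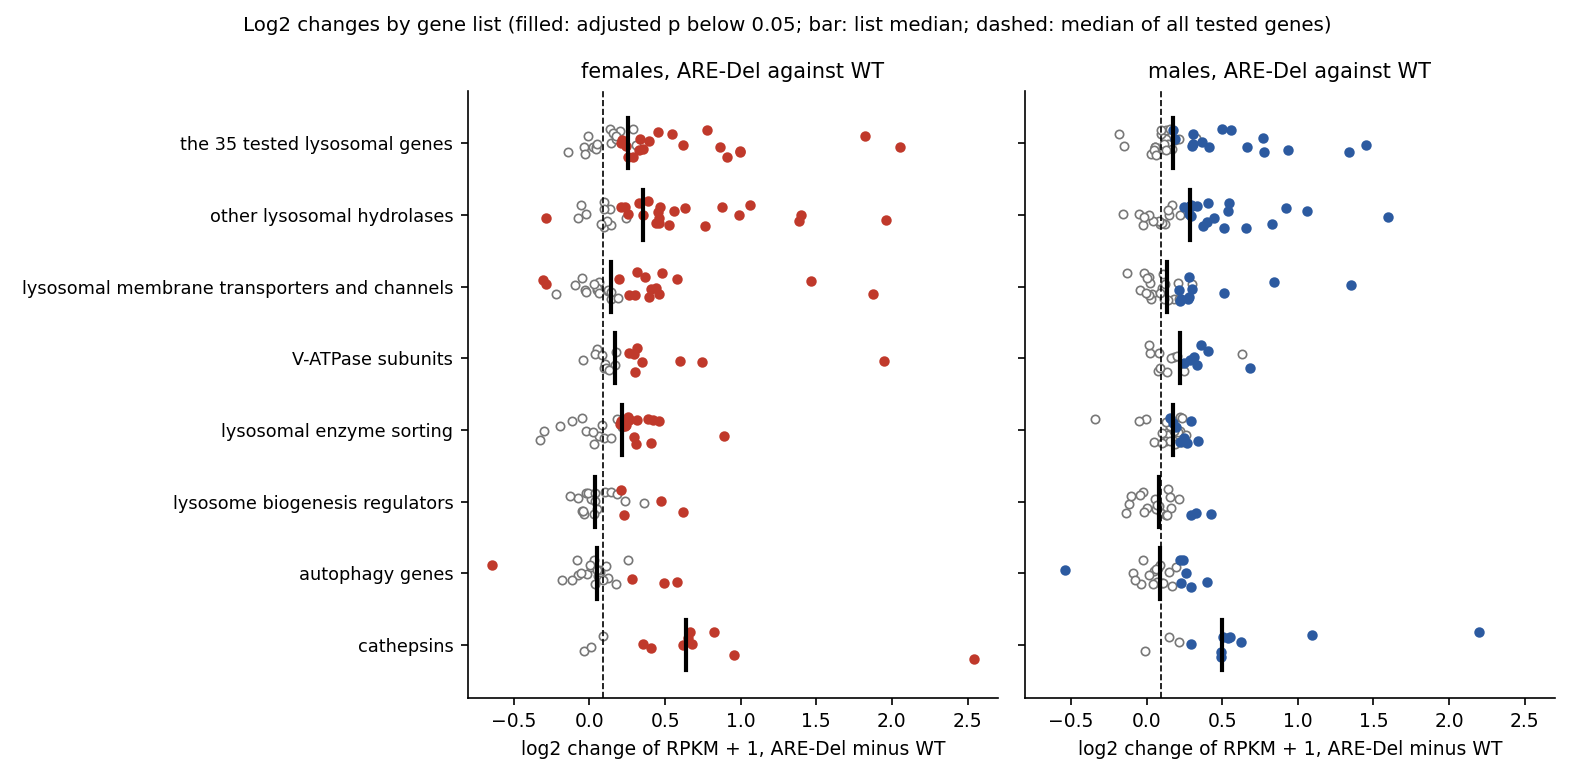
Log2 difference of RPKM + 1 between ARE-Del and WT for each tested gene of the members and of the 7 lysosomal lists, in females and in males, with points for genes (filled where the adjusted p was below 0.05), bars for list medians and a dashed line for the median of all tested genes. List medians run from 0.64 and 0.50 for cathepsins to 0.04 and 0.08 for biogenesis regulators, and that of the members lies between, at 0.26 and 0.18.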

How the data were processed

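Total RNA from liver was extracted with Trizol and made into libraries with the Illumina TruSeq RNA kit, per the labels' protocols. The deposited values are RPKM, which the authors made, per the submitters' processing notes, with Trimmomatic 0.30, TopHat2 2.0.8, Partek and GenomeStudio 6.6 on mm9. The counting of reads, the use of strand and the read totals were not given in the sources used here, and precision is shown by the spread over 3 libraries.

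Log2(RPKM + 1) was fitted for 10568 genes with limma 3.58.1 (R 4.3.3) (12 libraries, 1 mean per group, eBayes with a mean-variance trend) and adjusted within each of 5 comparisons by the Benjamini-Hochberg method at 0.05; the scaling was left as deposited. The steps were tested on simulated data. Exact permutation was used for Galc, below the filter. The alternatives were other pseudocounts, filters, scalings, variance models, a fit of only the groups compared, a replicate block and leaving out each library. Errors of log2 differences are SE. Summaries and promoter searches used Python 3.11.15 with pandas 2.3.3 and numpy 2.4.6, and figures matplotlib 3.10.9.

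The members, the 7 lysosomal and 11 marker lists (306 entries, 282 used) and the tests were chosen with earlier results of these data known. Library values are given for the called members with the 15 largest mean changes, up to 6 members per sex comparison by p, and the 3 highest members called in no comparison. From each other list the members with the largest mean change or highest RPKM are named, with Ifng, Atp6v0d2, Lgmn and Gpnmb. Tfeb, Tfe3 and the ratios of pairs were chosen after their values were seen. Counts over lists also include genes that are not reported here.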

Additional observations from a re-analysis of the deposited data

How the results depend on the processing

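With the values as deposited 19 members rose in females and 15 in males, and no member called in a comparison changed sign in that comparison under an alternative run. Of these calls 12 in females and 10 in males held under every alternative run. Leaving out 1 library at a time gave 15 to 20 in females, 11 to 15 in males, 2 to 13 for females against males in WT, where the fit with array weights gave 12, 11 to 18 in ARE-Del, and none for the interaction. Over all tested genes leaving out 1 library gave 2297 to 3272 calls in females and 1259 to 2481 in males. It gave 525 to 1116 for females against males in WT and 1367 to 2494 in ARE-Del. Fewer samples enter each of the fits with a library left out. For the 7 lysosomal lists in males the number called was 40 under median-of-ratios scaling, 34 under quantile normalization and 31 to 67 with 1 library left out. The lowest of these was without male WT 1, and the cause was not tested. Over all tested genes both scalings called nearly as many in males as the deposited values did, 2277 and 2076 beside 2272. Under median-of-ratios scaling and quantile normalization the male counts of single lists were 11 and 12 for other hydrolases, 3 and 4 for V-ATPase subunits, 3 and 1 for enzyme sorting and 3 and 2 for autophagy genes, and the female count for autophagy genes was 7 under both. Under quantile normalization enzyme sorting had 10 in females, transporters 6 in males and biogenesis regulators 1 in males, and V-ATPase subunits had 5 in females under median-of-ratios scaling. Biogenesis regulators had 2 in females with a minimum of 1 RPKM in 6 libraries, and enzyme sorting had 5 in males with only the groups compared.

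The members' summed RPKM averaged 458 in WT females, 574 in ARE-Del females, 436 in WT males and 495 in ARE-Del males under median-of-ratios scaling. Without Lamp1 it averaged 359.9 in WT females, 536 in ARE-Del females, 311 in WT males and 418 in ARE-Del males, since the highest gene is then missing.

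Log2 differences that changed sign belonged to genes that had not passed in that comparison, and the cause was not tested. In males median-of-ratios scaling and quantile normalization gave -0.0526 and -0.0278 for Lamp1, -0.123 and -0.067 for Lamp2, -0.12 and -0.0703 for Scarb2, -0.0724 and -0.0412 for Tpp1, -0.00271 and -0.0577 for Gla, -0.0121 and -0.0735 for Idua, and -0.050 and -0.00131 for Acp5. Quantile normalization gave -0.00808 for Sort1 and -0.00757 for Tfe3 in males and -0.0378 for Cln3 in females. In females Scarb2 had -0.158 under median-of-ratios scaling, -0.0464 under quantile normalization and -0.0326 with array weights. With 1 library left out, the range in females was -0.0684 to 0.0791 for Scarb2, -0.0912 to 0.108 for Arsa, -0.0819 to 0.0294 for Fuca1 and -0.105 to 0.0259 for Tpp1, and in males -0.0419 to 0.122 for Scarb2, -0.0132 to 0.136 for Idua and -0.0864 to 0.00472 for Tfeb.

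The labels do not tie equal replicate numbers to a shared litter or batch, and the deviations of same-numbered libraries correlated at -0.291 to 0.245, so the numbers were not taken as pairs. With the replicate block 19 members rose in females, 14 in males and none was called in the interaction, 6 and 16 differed between the sexes in WT and ARE-Del, and 70 and 51 genes of the lysosomal lists were called in females and males, 3 each of the enzyme sorting and autophagy genes in males. Of the 12 libraries 6 were closest to their own number in the other genotype of their sex, and libraries with different numbers correlated over nearly the same range, -0.247 to 0.230.

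Read totals were not used here, so no counting error stands beside a single RPKM, and values near the filter (Galc, Cd63, Idua, Glb1) rest on the spread of 3 libraries alone. Joint entries cannot separate Naglu or Fuca1 from the neighbouring gene.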
